A study of Ovis aries with 20 samples.

Results

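The newborn lamb heart was examined for 7 genes that mark cells of the immune system. CD14, CD86, TYROBP and CD93 stand for myeloid cells, CD3D and CD3E for T cells, and OVAR-DQA1 for MHC class II antigen presentation. CD93 is also found on endothelial cells, and the wider gene lists below place it there. All probes whose gene name or description on the array names a member were taken, which gave 14 probes for the 7 genes, of 999 genes named here and 15008 probes in all. The brightest probe of a gene by its mean over the 20 arrays stands for the gene, and the other probes are given beside it. The choice of brightest probe used no group, and all 7 of these lead probes were bright enough to be tested in all 6 comparisons.

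The tissue came from the wall of the left ventricle (LV) and from the septum between the ventricles, taken from singleton newborn sheep. Ewes received a continuous infusion of cortisol at 1 mg/kg per day, or vehicle, from about day 115 of gestation to birth, and the lambs were collected between 10 and 480 minutes after birth. Each region was taken from control and from cortisol lambs, which makes 4 groups with 5 arrays each. All 4 groups came from ewes that were infused, and the sample titles of all 20 carry the word telemetry. The age at collection of a single lamb is not given in the sources used here, nor is the sex.

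Myeloid cells (monocytes, macrophages and dendritic cells) and T cells live in the heart muscle in small numbers and can also be carried there in blood. T cells recognise protein fragments that antigen-presenting cells hold out on MHC class II molecules, and they need a further signal through costimulatory proteins such as CD86. Glucocorticoids such as cortisol are known to act on both kinds of cell.

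The array reads each transcript through DNA probes of 60 bases. The probes below are 5 probes of CD14, CD86, CD93 and OVAR-DQA1, shown because the text below turns on which stretch of a transcript was read. They were taken as coding sequence from their reading frames and annotation and were not aligned to a transcript. They are written 5′ to 3′ in the sense of the transcript, in lower case throughout, as no base is set apart.
CD14, lead probe: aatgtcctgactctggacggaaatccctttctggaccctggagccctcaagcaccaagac
CD86, lead probe: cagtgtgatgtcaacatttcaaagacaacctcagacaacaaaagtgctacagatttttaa
CD86, dim probe: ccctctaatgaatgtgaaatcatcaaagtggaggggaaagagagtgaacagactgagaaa
CD93, only probe: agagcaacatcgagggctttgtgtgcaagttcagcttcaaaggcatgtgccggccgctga
OVAR-DQA1, lead probe: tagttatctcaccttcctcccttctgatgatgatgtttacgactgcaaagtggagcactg
The lead probe of CD14 begins at base 957 of its transcript and shares 59 bases with the second CD14 probe. The lead and the dim probe of CD86 begin at bases 934 and 835 and share none.

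The probes of a gene did not always follow each other. Over the 20 arrays, after the mean of each group was taken away, the second probe correlated with the lead probe at r = 0.961 for CD14, 0.942 for TYROBP, 0.942 for CD3D and 0.946 for CD3E. The pairs of CD14 and TYROBP share 59 of their 60 bases and that of CD3D shares 30, so for these genes the pair reads much the same stretch of RNA. The other CD86 probes were well above background on 2 and 1 of the 20 arrays and correlated with the lead probe at r = 0.296 and 0.199, so CD86 rests on its lead probe alone. The dimmest CD86 probe carries its name through a weak protein match to a frog CD86. The second OVAR-DQA1 probe was well above background on 11 arrays, at r = 0.625 with the lead probe.

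Levels are given as the log2 of the scanner's processed signal minus the 75th percentile of the same array, so a value of -2 lies 2 doublings below that percentile. They compare a gene between samples, not genes with each other. In bulk tissue, fewer cells of a type and less RNA per cell cannot be told apart in any of these values. Across the 20 arrays, 57.9% to 72.1% of spots were well above background and the 75th percentile ranged from 99.2 to 440.8 intensity units, with 3 LV control and 3 LV cortisol arrays on a slide of their own. The heart muscle transcript MB (myoglobin) was well above background on all 20 arrays, with group means from 8.26 to 8.57. Of the T cell list, CD4 and CD40LG were well above background on 0 of 20 arrays and CD3G on 7.

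**Figure D1:**
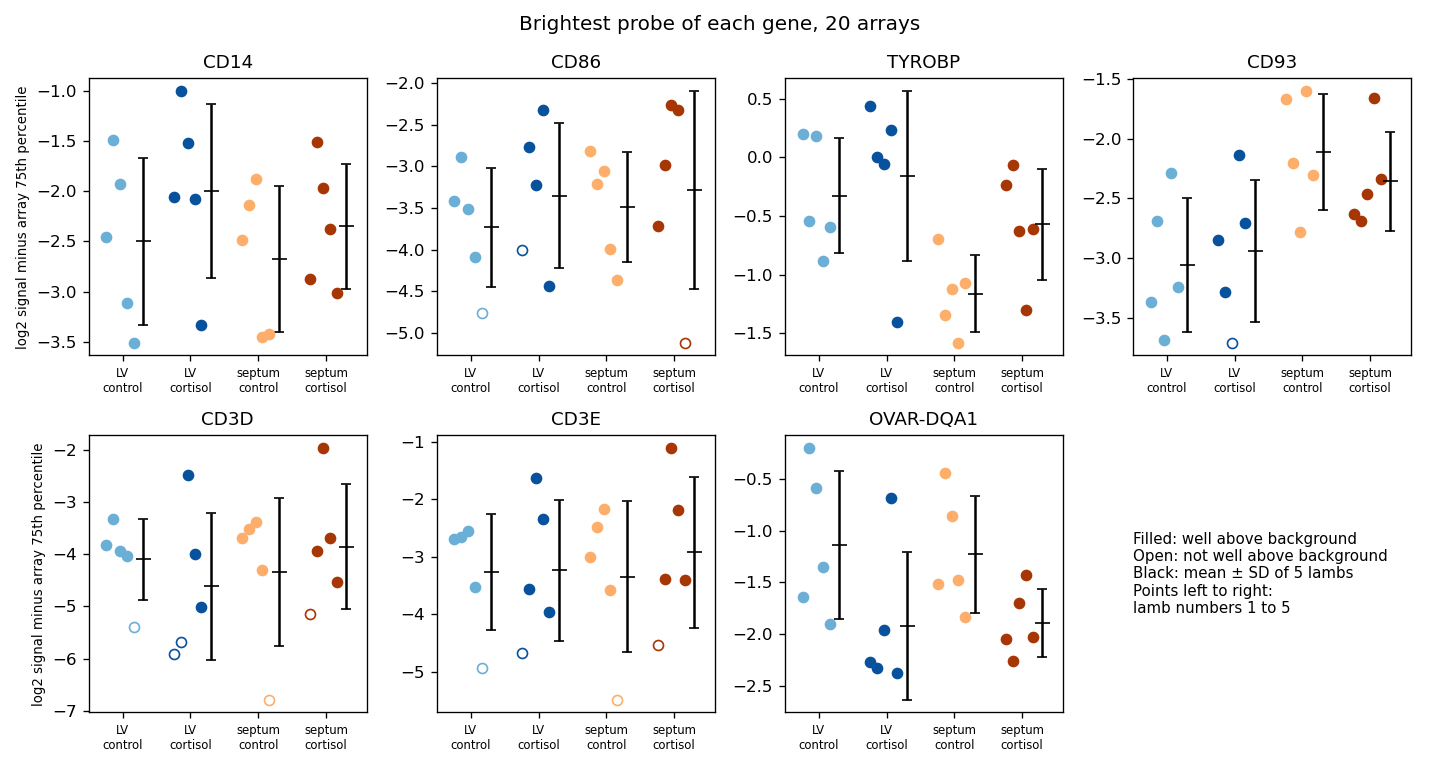
Level of the lead probe of each gene (vertical axis, log2 signal minus the array's 75th percentile) in the 4 groups of 5 lambs, with the group mean ± SD in black. Open points are spots not well above background. For each gene the points of neighbouring groups overlap, and CD3D and CD3E reach background in all 4 groups.

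The effect of cortisol was examined first, because the infusion is the treatment of the study. OVAR-DQA1 was the member with the largest mean difference that had the same sign in both regions, and its mean was lower after cortisol. Of the 4 myeloid genes, CD14, CD86 and TYROBP had higher means after cortisol in both regions. CD93 had a higher mean in the LV but not in the septum. CD3E was higher in both regions, though by 0.03 in the LV, while CD3D was lower in the LV and higher in the septum. Over all probes tested the mean was higher after cortisol for 49.1% in the LV and 54.7% in the septum. None of the 7 passed an adjusted p of 0.05 (limma, Benjamini-Hochberg over all probes tested) in either region. This was also the count over the whole array: percent called was 0 of 9791 probes in the LV and 0 of 10369 in the septum. At an unadjusted p of 0.05 limma gave 508 probes (5.19%) in the LV and 385 (3.71%) in the septum, among them 0 and 2 of the 7 members.

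OVAR-DQA1 encodes the alpha chain of the sheep MHC class II molecule DQ, which presents peptides to helper T cells. In the LV of lambs 1 to 5 its level was -1.64, -0.2, -0.59, -1.35 and -1.9 in controls. It was -2.27, -2.33, -1.96, -0.68 and -2.38 after cortisol. Cortisol lamb 4 stood high and the other 4 cortisol lambs lay below all 5 control lambs, so the groups overlapped through that lamb alone. The means were -1.14 ± 0.72 and -1.92 ± 0.72 (SD, n = 5), a log2 difference of -0.79 ± 0.40 (SE; 95% interval -1.67 to 0.1), or 1.73-fold lower, with adjusted p = 0.877 (limma).

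In the septum the levels of OVAR-DQA1 were -1.52, -0.44, -0.86, -1.48 and -1.84 in control lambs and -2.05, -2.26, -1.7, -1.43 and -2.03 in cortisol lambs. In all, 3 of the 5 cortisol lambs lay below all controls, and lambs 3 and 4 lay within their range. The difference was -0.67 ± 0.28 (SE; interval -1.28 to -0.06), or 1.59-fold lower, with unadjusted p = 0.0346 and adjusted p = 0.818 (limma). With both regions of a lamb averaged the difference was -0.73 (interval -1.45 to 0; adjusted p = 0.812, limma). The second probe gave -0.47 in the LV and -0.95 in the septum, with intervals of -2.59 to 1.65 and -3.06 to 1.16. The level was lower after cortisol on each slide that held both groups. In the LV the differences were -1.14 on slide 2 and -1.12 on slide 3. For the LV, slide 2 held 1 cortisol array beside 2 controls. In the septum the differences were -0.86 on slide 1 and -0.38 on slide 2. Cortisol lamb 4 is the one LV array on slide 4, and without it the LV difference was -1.1.

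Most of the genes beside OVAR-DQA1 in antigen presentation lay on the same side. Of a list of 38 MHC class II and antigen presentation genes, 9 were named on the array and 8 could be tested, and 7 of the 8 had lower means after cortisol in the LV and 7 of 8 in the septum, though 0 passed the adjusted threshold. The median difference of the list was -0.56 in the LV and -0.44 in the septum, against -0.01 and 0.03 over all probes tested. OVAR-DRB1, the beta chain of the other main class II molecule, had the largest of these: -0.95 ± 0.47 (SE) in the LV with adjusted p = 0.877 and -0.86 ± 0.48 in the septum with adjusted p = 0.818 (limma). OVAR-DQB1, the one gene of the 8 with a positive difference, was well above background on 10 of 20 arrays, with differences of 1.61 ± 1.85 and 1.66 ± 2.12 (SE). OVAR-DQA1 is itself in the list, and class II genes resemble each other in sequence, so that one probe may read more than one of them; this was not tested.

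**Figure D2:**
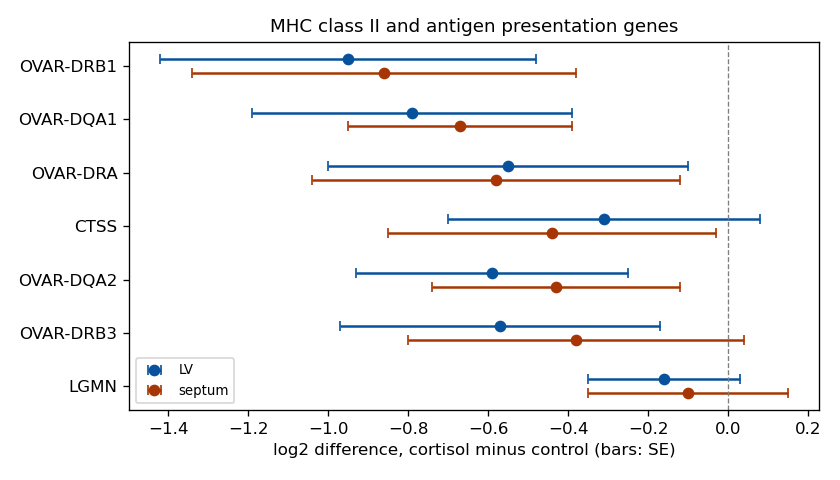
Cortisol minus control (horizontal axis, log2, bars SE) in LV and septum for the 7 MHC class II and antigen presentation genes that were well above background on all 20 arrays. All 14 points lie below 0, between -0.95 and -0.1, and none passed the adjusted threshold. OVAR-DQB1, tested but not well above background on all arrays, is not plotted, and its differences were positive in both regions.

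MHC class I, which all nucleated cells carry, was represented by 3 genes, with median differences of -0.34 in the LV and -0.48 in the septum and 0 past the threshold. Summed over the class II list, the level (linear, relative to the array's 75th percentile) ran from 10.9 to 15.7 in LV controls and 8.46 to 12.3 in LV cortisol lambs. In the septum it ran from 11.6 to 15.9 and from 8.59 to 18.4. LGMN, a lysosomal protease, made 44.8% to 80.1% of this sum, and its own cortisol differences were -0.16 and -0.1. Without LGMN the sum ran from 2.74 to 7.53 in LV controls and 2.64 to 4.96 in LV cortisol lambs, and from 2.51 to 7.2 and 2.35 to 4.94 in the septum. The ranges overlapped in both regions with and without it.

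TYROBP, also called DAP12, is an adaptor that carries the signal of several activating receptors on myeloid and natural killer cells. In the septum its level was -0.7, -1.34, -1.12, -1.58 and -1.07 in control lambs and -0.24, -0.07, -0.63, -1.3 and -0.61 in cortisol lambs. Of the 5 cortisol lambs, 4 lay above all controls, and cortisol lamb 4 lay among them. The difference was 0.59 ± 0.25 (SE; interval 0.04 to 1.14), or 1.51-fold higher, with unadjusted p = 0.0375 and adjusted p = 0.818 (limma). The second TYROBP probe gave 0.68 (unadjusted p = 0.0127, adjusted p = 0.818, limma). Within slides the septum difference was 0.89 on slide 1 (3 against 3 arrays) and 0.14 on slide 2 (2 against 2).

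In the LV, TYROBP was 0.2, -0.54, 0.18, -0.88 and -0.59 in control lambs and 0.44, 0, -0.06, 0.23 and -1.4 in cortisol lambs. Cortisol lamb 5 lay below every control, so the ranges overlapped. The difference was 0.17 (interval -0.61 to 0.95; adjusted p = 0.95, limma), and without LV cortisol lamb 5 it was 0.48. On slide 2, where that lamb is the one cortisol array beside 2 controls, the difference was -1.19, and on slide 3 it was 0.54.

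CD14 is the co-receptor through which monocytes and macrophages sense bacterial lipopolysaccharide. Its LV levels were -2.46, -1.49, -1.93, -3.11 and -3.51 in controls and -2.06, -1, -1.52, -2.08 and -3.33 after cortisol, and 4 of the 5 cortisol lambs lay above the control mean. The LV difference was 0.50 (interval -0.53 to 1.53; adjusted p = 0.883) and the septum difference 0.33 (interval -0.52 to 1.17; adjusted p = 0.842, limma). The second probe gave 0.25 and 0.35. In the septum CD14 ran from -3.45 to -1.88 in controls and from -3.01 to -1.51 after cortisol, and the groups overlapped.

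CD86 is a costimulatory ligand for CD28 on T cells, carried by dendritic cells, macrophages and B cells. It was well above background on 17 of 20 arrays and had means of -3.74 ± 0.72 in controls and -3.35 ± 0.87 after cortisol in the LV, and of -3.49 ± 0.66 and -3.28 ± 1.19 in the septum (SD, n = 5 each). The cortisol differences were 0.39 (interval -0.59 to 1.36) in the LV and 0.21 (interval -0.96 to 1.37) in the septum, with adjusted p of 0.897 and 0.926 (limma). The array numbered 5 was the lowest of its group in all 4 groups, although control lamb 5 and cortisol lamb 5 are different animals. That array was not well above background in LV control and septum cortisol. All 4 arrays numbered 5 are on slide 2, together with LV control 3, septum control 3 and septum cortisol 4. The part of the slide was not tested.

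CD93 is a C-type lectin receptor found on endothelial cells and on monocytes, first studied for its part in the clearance of dying cells. Its cortisol differences were 0.12 (interval -0.62 to 0.85) in the LV and -0.25 (interval -0.84 to 0.35) in the septum, with adjusted p of 0.963 and 0.839 (limma). The sign differed between slides in both regions. In the LV the difference was 0.75 on slide 2, with 1 cortisol array, and -0.5 on slide 3. In the septum it was -0.77 on slide 1 and 0.54 on slide 2.

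The wider myeloid list held 47 genes, of which 19 were named on the array, and 12 could be tested in the LV and 16 in the septum. In the LV 8 of 12 had higher means after cortisol and in the septum 10 of 16, with medians of 0.09 and 0.02 against -0.01 and 0.03 over all probes, and 0 passed. In the LV, the members CD14 and CD86 had the smallest unadjusted p of the list. In the septum the smallest were those of TYROBP and of TLR4, the lipopolysaccharide receptor that works with CD14. The difference of TLR4 was -0.9 ± 0.38 (SE; unadjusted p = 0.0351, adjusted p = 0.818, limma), the opposite sign to CD14. TLR4 was well above background on 5 septum control arrays but on 2 of 5 septum cortisol arrays, so background limits this value. The summed level of the list ran from 3.25 to 6.51, 2.69 to 7.12, 3.3 to 5.48 and 3.22 to 5.73 in controls and cortisol lambs, the LV first and then the septum, and these overlapped.

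CD3D and CD3E encode the delta and epsilon chains of CD3, the complex that signals for the T cell receptor. CD3D was well above background on 15 arrays and CD3E on 16. In the LV, CD3E was -2.7, -2.65, -2.55, -3.52 and -4.94 in control lambs and -4.67, -3.56, -1.64, -2.35 and -3.97 in cortisol lambs. In the septum it was -3.01, -2.49, -2.17, -3.58 and -5.49 in control lambs and -4.54, -3.38, -1.11, -2.19 and -3.41 in cortisol lambs. Control lamb 5 and cortisol lamb 1 were the lowest of their groups in both regions and not well above background, and cortisol lamb 3 was the highest in both. CD3D had the same lowest control lamb, at -5.39 in the LV and -6.79 in the septum, and the same highest cortisol lamb, at -2.49 and -1.97.

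The spread between lambs was therefore large beside the group differences. The SD of CD3D within a group was 0.77 to 1.41 and that of CD3E 1.01 to 1.31, while the median SD of all probes bright enough to test was 0.28 to 0.48 in the 4 groups. The cortisol difference of CD3D was -0.52 (interval -1.88 to 0.84) in the LV and 0.49 (interval -1.09 to 2.06) in the septum. That of CD3E was 0.03 (interval -1.31 to 1.38) and 0.42 (interval -1.15 to 2), and the adjusted p-values of the 4 tests ran from 0.872 to 0.991 (limma). The intervals of CD3E in both regions and of CD3D in the septum hold changes of over 1 log2 unit in either direction, and that of CD3D in the LV holds such a change downward.

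CD3D and CD3E followed each other closely over the arrays, at r = 0.946 over 20 arrays and 0.975 over the means of 10 lambs, both with the group means taken away. The points share lambs and the array's scaling, and low values near background are among them. The other named gene most like both was IGHM, the heavy chain of IgM made by B cells, at r = 0.779 with CD3D and 0.821 with CD3E. Next in likeness came CXCL8 for CD3D (0.731) and OVAR-DRA for CD3E (0.819), out of 589 genes compared.

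**Figure D3:**
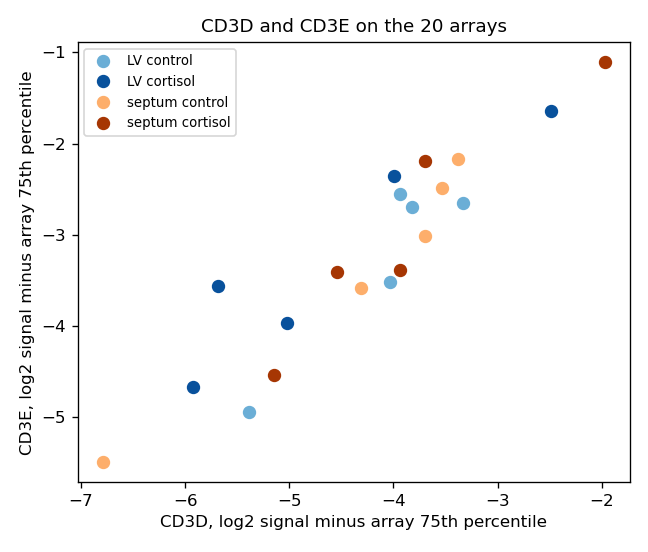
CD3E against CD3D (both axes log2 signal minus the array's 75th percentile) on the 20 arrays, coloured by group. The genes rise together across lambs of every group, from the septum control array at -6.79 (CD3D) and -5.49 (CD3E) to the septum cortisol array at -1.97 and -1.11.

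Of the T cell list, 18 of 39 genes were named on the array and 6 could be tested for cortisol in each region. In the LV 3 of 6 and in the septum 4 of 6 had higher means after cortisol, with medians of -0.15 and 0.24, and 0 passed. The difference of GATA3, a transcription factor of helper T cells that other cells also make, was 0.44 ± 0.34 (SE) in the LV and 0.58 ± 0.35 in the septum. That of IL2RA, a chain of the interleukin-2 receptor, was -0.57 ± 0.48 and -0.71 ± 0.50, and the adjusted p-values of these 4 tests were 0.818 to 0.883 (limma). IL2RA was well above background on 2 of 5 cortisol arrays in each region. TRAC, the constant part of the T cell receptor alpha chain, was well above background on all 20 arrays.

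Whether cortisol acted differently in the septum and the LV was tested on all 20 arrays as an interaction. This fit counted the LV and septum arrays of a lamb as separate samples. The differences of the cortisol effect, septum minus LV, were -0.17 for CD14, -0.18 for CD86, 0.42 for TYROBP, -0.36 for CD93, 1 for CD3D, 0.39 for CD3E and 0.12 for OVAR-DQA1. The adjusted p was 1 for each (limma; percent called 0 of 10069 probes, with 38 probes, 0.377%, at an unadjusted p of 0.05 and 0 of the members among them). The interval was widest for CD3D, from -1.11 to 3.12. With the lamb as a random block, which takes in the pairing of the regions, it was narrower, from -0.05 to 2.06. The unadjusted p of CD3D was then 0.0598 and the adjusted p 0.998 (limma), and 0 of 10069 probes passed. No region difference in the cortisol effect was therefore detectable in any member, and the intervals do not exclude one.

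**Figure D4:**
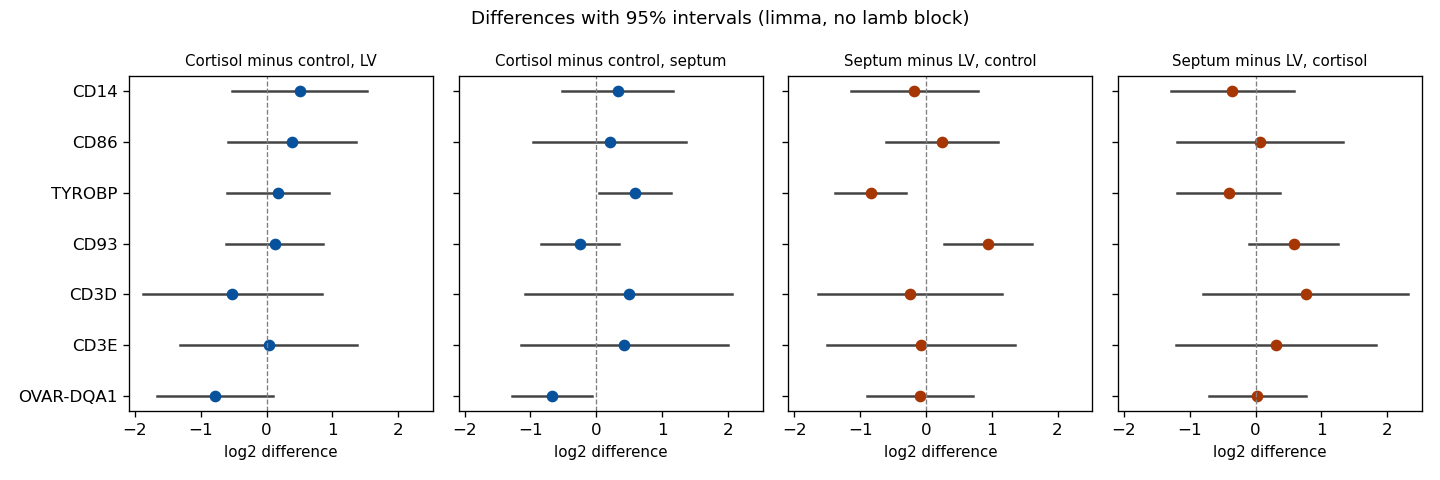
Log2 difference (horizontal axis) of the lead probe of each gene, with its 95% interval, for cortisol minus control in LV and septum and for septum minus LV in control and cortisol lambs. The intervals of CD3D and CD3E are the widest, those of TYROBP and CD93 exclude 0 for the septum against the LV in control lambs, and those of TYROBP and OVAR-DQA1 exclude 0 for cortisol in the septum.

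The septum was then set against the LV, separately in control and in cortisol lambs. In control lambs TYROBP was lower and CD93 higher in the septum, each in 5 of 5 lambs. In cortisol lambs the same members had the same signs of their means, with smaller sizes. Arrays of the 2 regions that share a treatment and a replicate number behaved as samples of 1 lamb, so the comparison was also made within lambs, with the lamb as a block. No member passed an adjusted p of 0.05 without this block (limma). With it the lead probes of TYROBP and CD93 alone passed, in control lambs, where 18.9% of all probes tested passed as well.

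For TYROBP the septum minus the LV was -0.9, -0.8, -1.3, -0.7 and -0.49 in control lambs 1 to 5. The mean was -0.84, or 1.79-fold lower in the septum. The 75th percentile of the septum array was above that of the LV array in each of these 5 lambs. It was 103.2, 196.4, 128.4, 265.6 and 239.1 intensity units in the LV, and 265.6, 440.8, 282.3, 320.7 and 277 in the septum. Before scaling, on these arrays of unlike brightness, the mean TYROBP signal was 140 in the LV and 141 in the septum. The part of array brightness in the TYROBP difference was not tested. With no lamb block the unadjusted p was 0.00597 and the adjusted p 0.127 (limma), and 136 of 10333 probes (1.32%) passed over the whole array, 0 of them members. With the lamb as a block the adjusted p was 0.00827 (interval -1.12 to -0.55), but 18.9% of all probes tested then passed as well (1949 of 10333), against 2 of the 7 members. At an unadjusted p of 0.05 without the block, 14.9% of probes passed, and again 2 of the 7 members. The second TYROBP probe, which shares most of its sequence, gave -0.73 with an adjusted p of 0.00507 with the block. Scaling by the array median or by quantile normalization gave -0.81 each for the lead probe with the block. The adjusted p was 0.0107 and 0.00928 (limma), where 19.7% and 19.3% of all probes passed. The normexp background correction described below gave -0.45.

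In cortisol lambs TYROBP differed between the regions by -0.68, -0.07, -0.58, -1.53 and 0.78. Lamb 5 was opposite in sign to the other 4, and the mean was -0.41, with an adjusted p of 0.641 with the lamb block (limma). Without lamb 5 the mean was -0.71 (adjusted p = 0.318).

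For CD93 the septum minus the LV was 1.7, 0.49, 0.91, 0.69 and 0.94 in control lambs. The LV levels were -3.37, -2.69, -3.69, -2.29 and -3.24, and those of the septum -1.67, -2.2, -2.78, -1.6 and -2.3. Each lamb was higher in the septum, although the ranges of the groups overlapped. Before scaling, on the same arrays of unlike brightness, the mean CD93 signal was 26 in the LV and 76.4 in the septum of control lambs. The mean difference was 0.95, or 1.93-fold higher, with an adjusted p of 0.162 without the lamb block and 0.0151 with it (limma). In cortisol lambs the difference of CD93 was 0.22, 0.59, 1.25, 0.49 and 0.37, positive in 5 of 5, although the highest, in lamb 3, is against an LV spot not well above background. The mean was 0.58 (unadjusted p = 0.0104, adjusted p = 0.397 with the lamb block; percent called 0 of 9902 probes, with 1016, or 10.3%, at an unadjusted p of 0.05, among them CD93, CD3D and CD3E of the 7 members).

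**Figure D5:**
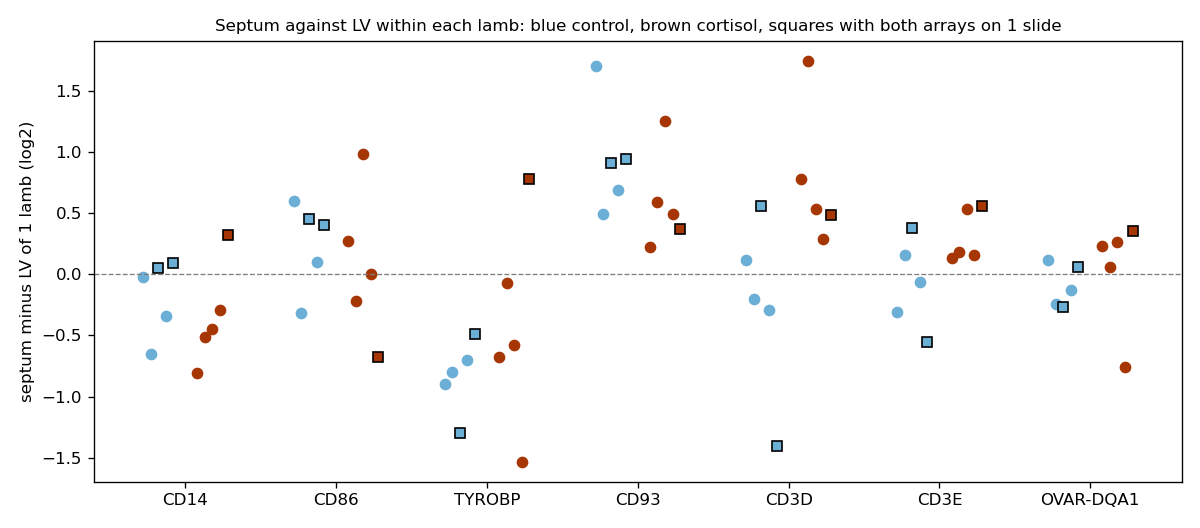
Septum minus LV within each lamb (vertical axis, log2) for the 7 genes, control lambs in blue and cortisol lambs in brown. Squares mark lambs with both arrays on 1 slide. All 5 control points of TYROBP lie below 0, from -1.3 to -0.49, and all 10 points of CD93 lie above 0, from 0.22 to 1.7.

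The regions lie mostly on different slides, and slide and scan time could not be separated. Control lambs 3 and 5 had both arrays on slide 2, where the difference was -0.89 for TYROBP and 0.93 for CD93, about as large as over all 5 lambs. Under another background correction (normexp with an offset of 50) the differences with the lamb block fell to -0.45 and 0.24 with an adjusted p of 1 each, and 0 of 10333 probes passed. Without normexp, 2 of 7 fibroblast genes passed in control lambs with no lamb block. These were the collagens COL1A2 (-1.22, adjusted p = 0.0188) and COL3A1 (-1.42, adjusted p = 0.025, limma), both lower in the septum. With the block these and COL1A1 passed. The fibroblast sum ran from 100 to 151 in LV control and from 96.2 to 138 in septum control, but VIM and DCN made 91.8% to 98.3% of it, and without them it ran from 5.68 to 9.07 and from 2.43 to 4.28. The endothelial list, which holds CD93, had a median of 0.01 over 9 genes tested, with PECAM1 at 0.01 ± 0.11 and KDR, the VEGF receptor, at -0.74 ± 0.26 (SE; adjusted p = 0.198, and 0.0103 with the block). Its sum ran from 13.9 to 16.6 and from 13.7 to 16.2, of which PECAM1 made 67.6% to 88.1%. The part of these cell types in the differences was not tested.

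The region differences of the T cell genes depended on the probe, and several rest on spots not well above background. In cortisol lambs 1 to 5 the septum minus the LV was 0.78, 1.74, 0.53, 0.29 and 0.48 for CD3D. Lamb 1 was not well above background in either region and lamb 2 was not in the LV, so the difference was measured on both sides in 3 lambs, from 0.29 to 0.53. For CD3E it was 0.13, 0.18, 0.53, 0.16 and 0.56, with lamb 1 not well above background in either region. The adjusted p-values with the lamb block, over all 5 lambs, were 0.397 and 0.464 (limma). In control lambs the signs were mixed, with 2 of 5 positive for each gene and lamb 5 not well above background in either region. The second CD3D probe gave 0.67 in cortisol lambs, while the second CD3E probe gave -0.11, opposite to its lead probe. In control lambs that second CD3E probe was higher in the septum by 0.64 with the lamb block (adjusted p = 0.039), with 3 of its 5 LV spots not well above background, where the lead probe gave -0.08 (adjusted p = 0.714), so the call does not hold across the gene's probes.

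The region differences of CD14, CD86 and OVAR-DQA1 did not pass the test. CD14 was -0.18 in control lambs and -0.35 in cortisol lambs, CD86 was 0.25 and 0.07, and OVAR-DQA1 was -0.09 and 0.03. The narrowest interval with the lamb block was that of OVAR-DQA1 in control lambs, from -0.3 to 0.11, and the adjusted p-values of the 6 tests ran from 0.242 to 0.964 (limma).

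In the wider lists the calls between regions depended on the lamb block. Without it 0 genes of the myeloid, T cell and class II lists passed. With it, in control lambs, 3 of 15 myeloid genes passed (TYROBP, FCER1G at -0.39 and CD40, a costimulatory receptor, at 0.4), 1 of 7 T cell genes (TRAC at 0.58) and 1 of 7 class II genes (OVAR-DQA2 at -0.35), where 18.9% of all probes passed. In cortisol lambs 0 passed with the block. Over all probes tested, 53% in control lambs and 56% in cortisol lambs had higher means in the septum. Of the myeloid list 10 of 15 genes tested had higher means in the septum in control lambs and 6 of 10 in cortisol lambs. The septum minus LV difference of TLR4 in control lambs was 0.90 ± 0.35 (SE; adjusted p = 0.258, limma), opposite in sign to TYROBP. Background limits it too, as TLR4 was well above background on 3 of 5 LV control arrays. Of the T cell list 5 of 7 and 5 of 5 genes had higher means in the septum, and of the class II list 3 of 7 and 5 of 8, with medians of 0.19 and 0.33 and of -0.05 and 0.03.

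Markers of the other cells that a piece of heart holds were read beside the cortisol comparison. All 7 fibroblast genes had higher means after cortisol in the LV and all 7 in the septum, with medians of 0.5 and 0.47, and 0 passed. Their summed level, nearly all VIM and DCN, ran from 100 to 151 in controls and 88.8 to 250 after cortisol in the LV, and from 96.2 to 138 and 89.8 to 235 in the septum. Of the B cell genes 3 of 3 had lower means in each region (medians -0.52 and -1.19) and of the neutrophil genes 2 of 3 in each (medians -0.55 and -0.2), again with 0 past the threshold. The endothelial medians were 0.07 and 0.13 and those of heart muscle 0.19 and 0.35. Their part in the values of the members was not tested.

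For all 7 members the groups overlapped in each of the 4 comparisons, where the share of all tested probes whose groups did not overlap was 0.735% (cortisol, LV), 0.386% (cortisol, septum), 5% (region, control) and 0.323% (region, cortisol).

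Among themselves the members fell into loose sets over the 20 arrays with group means taken away, given as a description, since the arrays share lambs and slides. CD14 and CD86 correlated at r = 0.74, and CD86 with CD3E at 0.715, CD3D at 0.623 and OVAR-DQA1 at 0.6. TYROBP was near 0 with CD3D (-0.0335), CD3E (0.0163) and OVAR-DQA1 (0.024), and at 0.472 with CD14. CD93 did not move with the other myeloid members: r was -0.368 with CD14, -0.416 with TYROBP and 0.0889 with CD86.

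The named genes most like each member differed in kind. For OVAR-DQA1 they were OVAR-DRB1 (r = 0.88), OVAR-DRA (0.873) and CTSS (0.828), the cathepsin that trims the class II invariant chain. For CD86 they were LOC100101238 (0.827), annotated as a regakine 1-like protein, CTSS (0.815) and FCER1G (0.788), an adaptor of Fc receptors, and for CD14 OVAR-DQA2 (0.886), FLAP (0.874) and CDKN1C (0.818). For TYROBP they were LOC654331 (0.898), annotated as pancreatitis-associated protein I, SMCT1 (0.89) and LHB (0.865), none of which is in the myeloid list. For CD93 they were BMP4 (0.787), CDK2 (0.768) and MADCAM1 (0.754).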

How the data were processed

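The data are 20 1-colour Agilent arrays, 5 per group. Per the file headers and the submitters' processing notes, the authors scanned them with Agilent Feature Extraction 10.1.1.1, and the processed signal deposited is a background-subtracted intensity that is not scaled between arrays. The value table the authors deposited holds log2 values whose scale, centring and background correction are not stated, with column medians of 6.71 to 6.72 in the LV and 9.49 to 9.54 in the septum; it was used only as an alternative within a region. No genome build is given in the sources used here, so no coordinates are printed. Probe names came from the files' annotation, updated where possible through the RefSeq gene table of ARS-UI_Ramb_v3.0; 1640 of 15008 probes had a name, 220 of them, OVAR-DQA1 included, by the files alone.

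Here log2 processed signals had each array's 75th percentile subtracted; control spots and outlier-flagged spots were left out, except in summed levels, which keep flagged spots. A probe was tested if well above background on at least a share of 0.5 of a fit's arrays. Tests were two-sided, with limma 3.58.1 (lmFit, eBayes) in R 4.3.3 and Benjamini-Hochberg adjustment over all probes tested. Intervals cover 95%. The fits without a lamb block were run on simulated arrays with known changes, drawn with no shared lamb effect. Each simulated run held 100 changes of 1 log2 unit and 100 of 2 log2 units together. That many planted changes ease the Benjamini-Hochberg threshold, so the shares called do not carry over to fits with 0 calls. Of 100 changes of 1 log2 unit, 46 were called for cortisol in the LV and 46 in the septum. For the septum against the LV in control lambs 35 of 100 were called, and 78 of 100 at 2 log2 units. The fits with the lamb block were not simulated. Arrays of the 2 regions that share a treatment and a number were paired as lambs: after removing group means, all 10 pairs correlated above 0.1 (0.447 to 0.813), each best with its own number. The pairing comes from this check, with 5 ewes per treatment in the labels. Control and cortisol arrays of the same number correlated at 0.0723 to 0.288 in the LV and 0.0577 to 0.273 in the septum. In each region 3 of these 5 pairs were also best with their own number, so that trait is not particular to pairs of 1 lamb. Each array was taken as a separate sample, and nothing states how RNA was split.

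The members and gene lists were chosen with earlier results of these data known. All 7 members were named with all probes; from each list, genes past the threshold or the 2 with the smallest unadjusted p were named, OVAR-DQB1, PECAM1, TRAC, CD4, CD40LG, CD3G, MB, LGMN, VIM, DCN and the genes plotted being chosen after their values were seen. Likeness was taken over named genes well above background on a share of 0.5 of the 20 arrays. The names WC1, ITGAL, C5AR1, OVAR-DRB3, OVAR-DQA2 and DYA were added to the lists after the annotation was read. Alternatives were other background corrections, scalings, filters, array weights, blocks of slide or replicate, within-slide fits and leaving out each lamb.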

Additional observations from a re-analysis of the deposited data

Results flagged for a closer look

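Of the 28 sets of 5 values (7 genes in 4 groups), 3 held 1 lamb that stood apart from the others of its group by the Dixon test, where chance gives about 1 in 20. OVAR-DQA1 in LV cortisol lamb 4 was -0.68, against -1.96 in the nearest lamb, and this is the one array on slide 4. TYROBP in LV cortisol lamb 5 was -1.4, against -0.06 in the nearest. CD3D in septum control lamb 5 was -6.79, against -4.31 in the nearest, and this spot was not well above background. No member's cortisol effect differed between the regions past an adjusted p of 0.05 (limma).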

How the results depend on the processing

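The count of probes past an adjusted p of 0.05 (limma) stayed at 0 under all alternatives run for cortisol in the LV, cortisol in the septum, the difference between regions and the average over regions. For the septum against the LV in control lambs it was 136 and moved to 0 with normexp, with the slide as a block or within slide 2, to 303 with no filter, 229 with the stricter filter, 227 with array weights and 1949 with the replicate block of the lamb. Leaving out 1 control lamb gave 0 to 75, the 0 without lamb 2. In cortisol lambs it was 0 and became 1 with the slide as a block. The replicate block of the number shared by control and cortisol arrays, which are not paired (7 of 10 correlations above 0.1), changed no call.

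OVAR-DQA1 stayed lower after cortisol in the LV (-1.14 to -0.31) and the septum (-0.95 to -0.37), TYROBP stayed higher in the septum (0.14 to 0.89), and for the septum against the LV in control lambs TYROBP stayed at -0.92 to -0.45 and CD93 at 0.24 to 1.06, under all alternatives run. With the lamb block these 2 calls were lost under normexp and in the 2 lambs with both arrays on slide 2, and held without any 1 lamb.

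Other differences, none of them past the threshold without the lamb block, changed sign; the cause was not tested. With that block the second CD3E probe passed in control lambs (adjusted p = 0.039, limma). With normexp: CD3D, cortisol in LV, 0.05; CD93, cortisol in septum, 0.08; in control lambs between regions CD14 0.01, CD3E 0.05 and OVAR-DQA1 0.03; in cortisol lambs CD14 0.02 and OVAR-DQA1 -0.03; for the difference between regions CD14 0.01, CD86 0.07 and OVAR-DQA1 -0.06. With array weights CD3E, cortisol in LV, was -0.11, with the deposited table -0.07, and with quantile normalization CD3E between regions in control lambs was 0.01. With the slide as a block, CD93 and CD3E for cortisol in LV were -0.11 and -0.3, CD14 between regions 0.07 (control) and 0.63 (cortisol), TYROBP 0.44 (cortisol) and CD86 0.2 for the difference between regions. Within slide 2, cortisol in LV, with 1 cortisol array, was -0.61 for CD14, -0.3 for CD86, -1.19 for TYROBP and -0.22 for CD3E. Cortisol in septum was -0.04 for CD14, -0.01 for CD86 and 0.54 for CD93. Between regions it was 0.07 (control) and 0.63 (cortisol) for CD14 and 0.44 (cortisol) for TYROBP. Within slide 3, CD93 was -0.5 and CD3E -0.33. The other probe gave CD3E -0.26 (cortisol, septum), 0.64 (region, control), -0.11 (region, cortisol) and -0.75 (difference between regions), CD3D 0.05 (region, control), and CD14 0.1 and OVAR-DQA1 -0.48 for the difference between regions.

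Leaving out 1 lamb gave, for cortisol in LV, CD93 -0.08 to 0.31 and CD3E -0.38 to 0.39; for cortisol in septum, CD86 -0.05 to 0.67, CD3D -0.13 to 0.81 and CD3E -0.11 to 0.83; between regions, CD3D -0.44 to 0.05 and CD3E -0.19 to 0.04 in control lambs, and CD86 -0.16 to 0.26 and OVAR-DQA1 -0.05 to 0.23 in cortisol lambs; and for the difference between regions, CD86 -0.41 to 0.01.

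With 5 lambs a group, the intervals of CD3D and CD3E are wide, and their dim spots limit the low end. Slide and region are largely confounded, and in control lambs the septum arrays were the brighter ones. CD14, CD86, TYROBP and CD93 rest on 1 stretch of sequence each. The added combinations of the lamb block were chosen after seeing the data.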
